A study of Mus musculus with 2 samples.

Results

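Secreted Wnt antagonists are extracellular proteins that dampen Wnt signalling, and 8 genes encoding them were followed across mouse aortic cell types: Sfrp1, Sfrp2, Sfrp4, Frzb, Wif1, Dkk2, Sost and Dkk3. They were picked by symbol from the 32285 genes of both count matrices, after earlier results of these data were known, so their levels are given as a description and support nothing further. The data are single-cell RNA-seq of 2 libraries, 1 per group, from a series on endothelial CD45 (the leukocyte phosphatase encoded by Ptprc) and endothelial-to-mesenchymal transition in atherosclerosis. Both groups were ApoE-/-/C57BL/6 mice fed a Western diet, which raises plasma cholesterol in this strain. The control library is called WT, although it too lacks ApoE. The other, EC-iCD45KO, came from a strain that is also deficient in CD45 in endothelial cells. The labels give neither the Cre driver, the ages nor the number of animals pooled in a library. Cells were digested from whole aorta and passed over beads that bind CD31, a surface protein of endothelial cells and several leukocytes, so the shares of cell types reflect that step as well as the tissue. With 1 library per group there is no replicate and no test, and every interval below is a 95% interval that covers counting error only.

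Wnt proteins bind a Frizzled receptor together with Lrp5 or Lrp6, which stabilises β-catenin and turns on its target genes. The secreted frizzled-related proteins (Sfrp1, Sfrp2, Sfrp4 and Frzb, also called Sfrp3) carry a cysteine-rich domain like that of the Frizzled receptors and bind Wnts outside the cell, and Wif1 binds Wnts through a WIF domain. Dkk2 and Sost (sclerostin) bind Lrp5 and Lrp6 instead, and Dkk3 is a divergent member of the Dickkopf family for which no clear action on these receptors is established. In arteries, Wnt signalling has been linked to endothelial identity, to the phenotype of smooth muscle cells and to calcification, and Sost is best known as the osteocyte product that restrains bone formation.

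The genes lie on 7 chromosomes. In GENCODE M21 on GRCm38 they are Sfrp1 (chromosome 8, 23411502 to 23449632, plus strand), Sfrp2 (chromosome 3, 83766321 to 83774316, plus strand), Sfrp4 (chromosome 13, 19623104 to 19632994, plus strand) and Frzb (chromosome 2, 80411970 to 80447625, minus strand). The others are Wif1 (chromosome 10, 121033960 to 121100650, plus strand), Dkk2 (chromosome 3, 132085292 to 132180304, plus strand), Sost (chromosome 11, 101962458 to 101967015, minus strand) and Dkk3 (chromosome 7, 112116017 to 112159057, minus strand). Sfrp2 overlaps the antisense gene Gm26771, and whether counting used the strand is not given in the sources used here. For Sfrp2, Dkk2 and Sost, of which Dkk2 led in EC-like and the others in SMC-like cells of WT (both classes are described with the values), the 60 bases upstream of the start are shown because each holds an AT-rich hexamer like a TATA box upstream of its start. The sequences are RefSeq's on GRCm38.p6, written 5′ to 3′ on the strand of the gene, with the hexamer in capitals.
Sfrp2 (chr3:83766261-83766320, plus strand): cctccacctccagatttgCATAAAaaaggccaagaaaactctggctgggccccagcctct
Dkk2 (chr3:132085232-132085291, plus strand): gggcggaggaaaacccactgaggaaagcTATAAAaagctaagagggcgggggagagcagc
Sost (chr11:101967016-101967075, minus strand): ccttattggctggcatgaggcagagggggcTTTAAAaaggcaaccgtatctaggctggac
The first base of the hexamer lies 42 bases before the start in Sfrp2, 32 in Dkk2 and 30 in Sost. These 3 hexamers were chosen after the sequences were read and searched between 45 and 21 bases before the start on the gene's strand only. At least 1 of the 3 was found in 1379 of 32851 RefSeq promoter windows (4.20%). TATAAA was found in 2.01% of the windows. CATAAA was found in 0.782% of them. The last, TTTAAA, was found in 1.42%. A match describes the letters and does not show that the site is used. RefSeq's starts for Frzb and Wif1 differ from those of GENCODE and their sequences are not printed, and the table used here was matched for neither Sfrp1, Sfrp4 nor Dkk3.

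The WT library held 39849 barcodes and 92058043 UMIs (tags that tell one captured RNA molecule from another), and the EC-iCD45KO library 30278 barcodes and 88967918 UMIs. The median was 1548 and 1405 UMIs per barcode, and 340 barcode sequences occurred in both libraries. After filters on genes, mitochondrial UMIs and doublet scores, 35553 and 26064 cells were kept and clustered together without the antagonists or other Wnt genes. Clusters were named X-like from fixed marker lists. EC-like (endothelial) cells made up 11.4% of WT and 15.1% of EC-iCD45KO cells. Their 12 endothelial markers, Pecam1 and Cdh5 among them, summed to 3892 and 4781 CPM (UMIs per 1000000 UMIs of the cells summed). The 10 macrophage markers summed to 3938 and 5860 CPM in the same cells, the 7 B-cell markers to 954 and 72.8 CPM and the 8 T/NK markers to 333 and 50.8 CPM. Every gene of these 4 lists had a UMI in EC-like cells of both libraries. Ptprc, the targeted gene, was at 312 CPM in WT and 115 CPM in EC-iCD45KO EC-like cells. It was also lower in EC-iCD45KO SMC-like (smooth muscle) cells, at 86.0 against 177 CPM, and in fibroblast-like cells, at 138 against 377 CPM. Leukocyte classes went both ways. In B-like cells it was 753 CPM in WT and 1269 CPM in EC-iCD45KO, and in neutrophil-like cells 912 and 1742 CPM. It was lower in EC-iCD45KO in macrophage-like cells, at 294 against 508 CPM, and in T/NK-like cells, at 905 against 1108 CPM. The same held for dendritic cell-like cells, at 684 against 837 CPM, and plasma-like cells, at 152 against 299 CPM. Ptprc was thus lower in classes outside the endothelium too, and the deletion was not checked by its level in EC-like cells alone. RNA free in the droplets was not estimated, and its part in low levels was not tested.

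The antagonists did not share 1 leading cell type. In the WT library Sfrp1 was highest in Schwann-like cells, at 303 CPM (236 to 385), and in EC-like cells, at 268 CPM (257 to 279), whose intervals overlapped. It was lower in fibroblast-like cells, at 80.5 CPM (74.4 to 87.1), and in lymphatic EC-like cells, at 51.0 CPM (34.9 to 72.0). Dkk2 was the other antagonist of EC-like cells, at 32.8 CPM (29.0 to 37.0), with no other class above 6.4 CPM. Sost led in SMC-like cells, at 82.6 CPM (76.9 to 88.7), and Dkk3 did too, at 171 CPM (163 to 180). Over finer clusters Dkk3 was highest in one led by Slurp1, Vcam1 and Lum, at 234 CPM (220 to 249). That cluster was counted as SMC-like here but was named fibroblast-like at the finer resolution, so the leading class of Dkk3 depends on the naming. Sfrp2 was highest in SMC-like cells, at 218 CPM (209 to 228), ahead of fibroblast-like cells, at 126 CPM (119 to 135). Sfrp4 was the antagonist of fibroblast-like cells, at 622 CPM (604 to 640), ahead of chondrocyte-like cells, at 245 CPM (227 to 264). Frzb and Wif1 led in chondrocyte-like cells, a class defined by cartilage genes such as Col2a1 and Acan. Frzb stood there at 385 CPM (362 to 408) against 182 CPM (174 to 191) in SMC-like cells, and Wif1 at 200 CPM (184 to 218) against 21.6 CPM (18.7 to 24.8). These are levels of 1 gene across classes, and levels of different genes are not compared because counts were not scaled for transcript length.

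**Figure D1:**
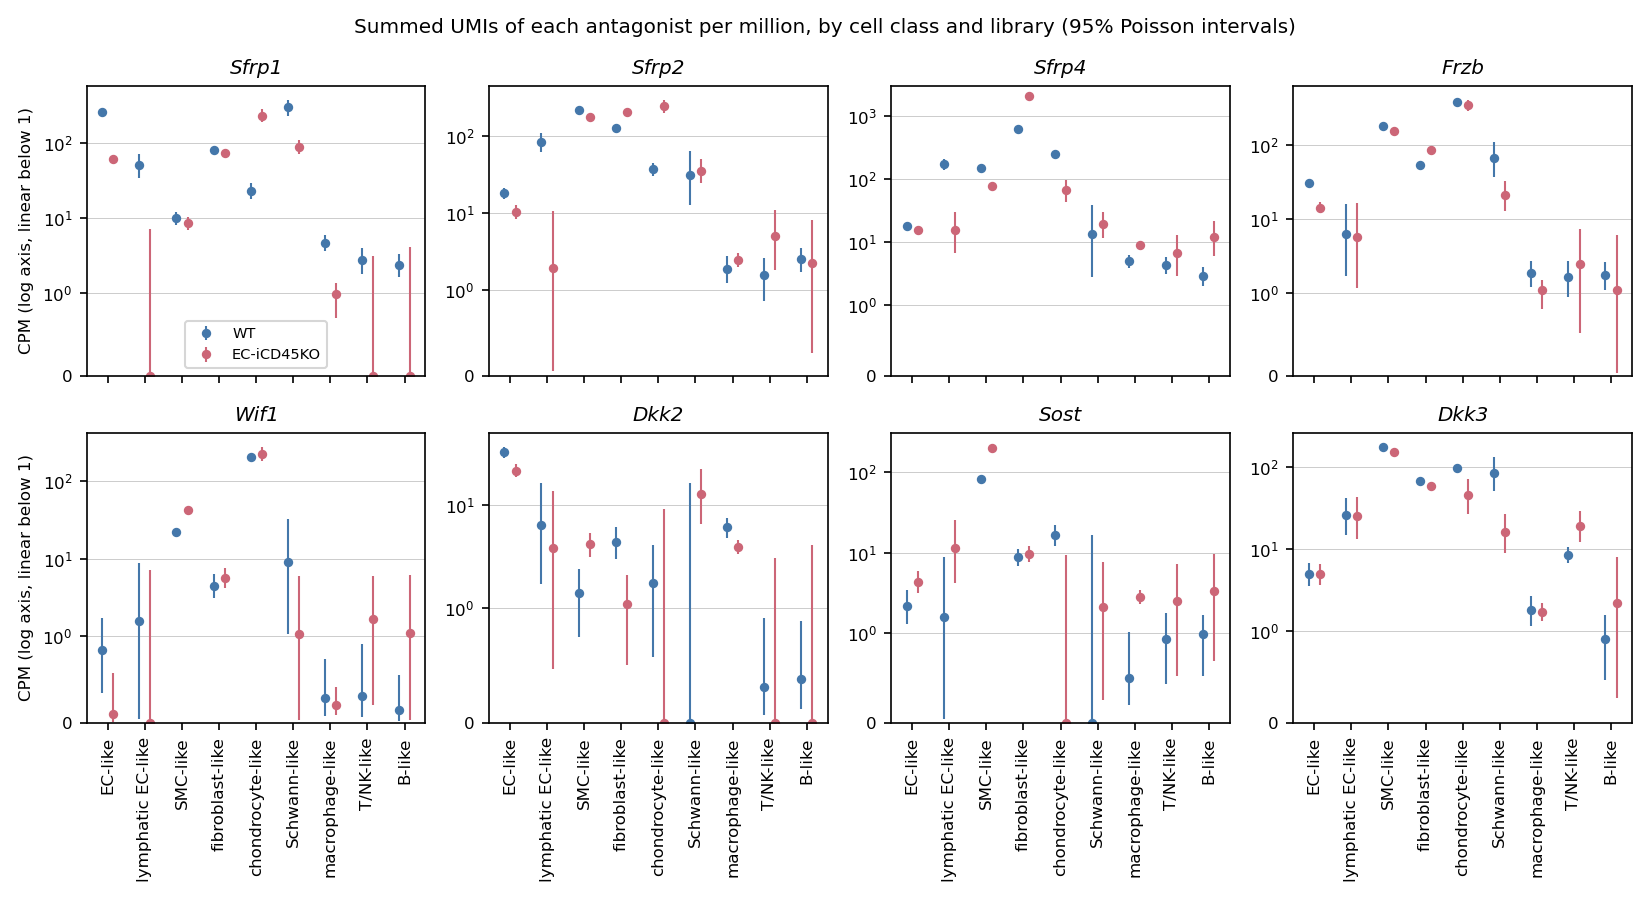
Levels of the 8 antagonists in 9 cell classes of the WT (blue) and EC-iCD45KO (red) libraries. Each panel is 1 gene, the y axis is summed UMIs per 1000000 (log axis, linear below 1), points are the 2 libraries and bars are 95% Poisson intervals. Sfrp1 in EC-like cells stands at 268 CPM in WT and 61.9 CPM in EC-iCD45KO, and Sfrp4 in fibroblast-like cells at 622 and 2042 CPM. The chondrocyte-like points of EC-iCD45KO rest on 43 cells.

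In the EC-iCD45KO library some leading classes were the same and others were not. Sost and Dkk3 again led in SMC-like cells, at 197 and 151 CPM, and Sfrp4 in fibroblast-like cells. Over finer clusters Dkk3 was again highest in the Slurp1, Vcam1 and Lum cluster, at 201 CPM (186 to 217). That interval overlapped the one of a cluster led by Cnn1 and Acta2, at 190 CPM (178 to 202). Dkk2 was again highest in EC-like cells, at 21.8 CPM (19.0 to 24.9), but its interval overlapped that of Schwann-like cells, at 12.8 CPM (6.6 to 22.4). For Sfrp1, Schwann-like cells stood at 89.6 CPM (71.5 to 111) and fibroblast-like cells at 73.4 CPM (67.6 to 79.5), and EC-like cells were below both at 61.9 CPM (57.02 to 67.0), with an interval apart from that of the fibroblast-like cells. Sfrp2 was higher in fibroblast-like cells, at 206 CPM (196 to 216), than in SMC-like cells, at 175 CPM (168 to 182), the reverse of the WT order. Only 43 EC-iCD45KO cells were chondrocyte-like, against 756 in WT, so that class was left out of this order.

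The source of each antagonist's RNA followed from these levels and from the numbers of cells. EC-like cells held 63.1% of all Sfrp1 UMIs in WT and 37.9% in EC-iCD45KO. Fibroblast-like cells held 61.4% and 88.8% of the Sfrp4 UMIs, and SMC-like cells 73.1% and 86.3% of the Sost UMIs. For Wif1 the leading source differed: chondrocyte-like cells held 64.2% in WT and 12.2% in EC-iCD45KO, and SMC-like cells 22.8% and 77.8%.

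Between the libraries, the antagonists were compared first in EC-like cells, the class of the targeted cell type. With 1 library per group the values describe these libraries only. Sfrp1 was 4.33-fold lower in EC-iCD45KO, with 2219 UMIs (268 CPM) in 4047 WT cells and 602 UMIs (61.9 CPM) in 3936 EC-iCD45KO cells, a log2 ratio of -2.11 (-2.25 to -1.98). Frzb was 2.20-fold lower, with a log2 ratio of -1.14 (-1.44 to -0.83). Its level was 14.3 CPM (12.0 to 16.9) in EC-iCD45KO against 31.4 CPM (27.7 to 35.4) in WT. Dkk2, at 32.8 and 21.8 CPM, had a log2 ratio of -0.59 (-0.86 to -0.33). Sfrp2 had one of -0.80 (-1.18 to -0.42) at 17.9 and 10.3 CPM, but 10 cells held 65.5% of its 148 WT UMIs, and the ratio was -1.69 with an equal weight per cluster and 0.37 with means of single-cell CPM. Sfrp4 had one of -0.19 (-0.53 to 0.15) at 17.6 and 15.4 CPM, which rose as high as 0.57 and kept its sign in 9 of 12 alternatives. Of the 5 antagonists with a mean of at least 5 CPM in this class, 2 were at least 2-fold lower and none was 2-fold higher. Of all 10967 genes at this minimum, 3.69% were 2-fold lower and 1.5% were 2-fold higher. The median log2 ratio of the 5, which is that of Sfrp2, was -0.80, beside -0.00 over all genes. Wif1, Sost and Dkk3 were under 5 CPM in both libraries. Frzb missed 2-fold with an equal weight per cluster (-0.79) and with means of single-cell CPM (-0.96).

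After each cell was thinned to 1000 UMIs, a Sfrp1 UMI was present in 8.98% (7.91 to 10.1) of 2640 WT and 3.58% (2.88 to 4.39) of 2486 EC-iCD45KO EC-like cells. The share was at most 0.65% in macrophage-like, T/NK-like and B-like cells, which should lack the gene. Without thinning the shares were 9.34% and 4.50% in EC-like cells. Thinning left out 1407 and 1450 shallower EC-like cells, and median depth was 1277 and 1267 UMIs. For Dkk2 the thinned shares in EC-like cells were 2.92% (2.31 to 3.63) and 1.25% (0.850 to 1.77), and at most 0.65% in the leukocyte classes.

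**Figure D2:**
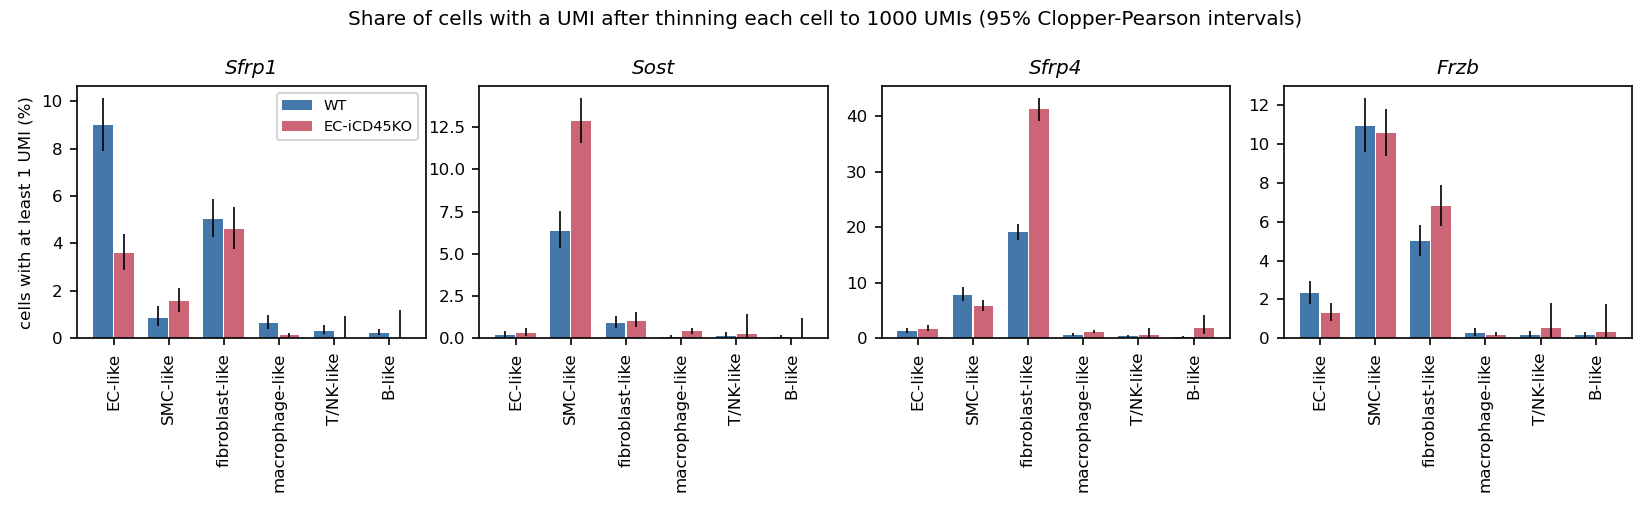
Share of cells with at least 1 UMI of Sfrp1, Sost, Sfrp4 and Frzb in 6 classes, after each cell was thinned to 1000 UMIs. Bars are the WT (blue) and EC-iCD45KO (red) libraries, the y axis is percent of cells, and error bars are 95% Clopper-Pearson intervals. Each gene stands well above the macrophage-like, T/NK-like and B-like cells in at least 1 class, for example Sfrp4 in fibroblast-like cells at 19.1% in WT and 41.2% in EC-iCD45KO.

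The EC-like class was made of different clusters in the 2 libraries, and such clusters can stand for a library as well as for a cell state. At a finer resolution, 1400 WT but 131 EC-iCD45KO EC-like cells fell in a cluster led by Glycam1, Ubd and Igkv8-30, and 659 and 1958 fell in one led by Rbp7 and Gpihbp1. Sfrp1 was concentrated in neither. It lay in a cluster led by Tmem158 and Gkn3, with 894 WT and 638 EC-iCD45KO cells. Its arterial markers Gja5 and Gja4, connexins of arterial endothelium, were at 161 and 259 CPM and at 263 and 443 CPM in WT and EC-iCD45KO, and Bmx, an arterial kinase, at 177 and 171 CPM. It is therefore described next by itself.

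In the Tmem158 and Gkn3 cluster Sfrp1 was at 1038 CPM in WT and 367 CPM in EC-iCD45KO. It was 2.83-fold lower there, a log2 ratio of -1.50 (-1.63 to -1.37). The 2134 WT UMIs came from 327 cells and the 581 EC-iCD45KO UMIs from 158 cells. The 10 cells with the most Sfrp1 held 27.6% and 37.9% of them. The thinned share of cells with Sfrp1 stood at 32.5% (29.0 to 36.2) for WT, against 18.3% (14.9 to 22.2) for EC-iCD45KO, so both the share of cells and the summed level were lower. Restricted to cells that were also EC-like at the coarser resolution (873 and 553), Sfrp1 stood at 1055 and 401 CPM, a log2 ratio of -1.40.

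Dkk2, the Lrp5 and Lrp6 ligand, was 3.20-fold lower in the same cluster, at 87.1 and 27.2 CPM in WT and EC-iCD45KO, which is a log2 ratio of -1.68 (-2.20 to -1.19). That ratio was further from 0 than the one over all EC-like cells. In the Gpihbp1 and Ccdc85a cluster, also of endothelium, Dkk2 was at 26.3 and 34.6 CPM, a log2 ratio of 0.40 (-0.07 to 0.88) whose interval was apart from that of the Tmem158 and Gkn3 cluster. Frzb in the latter was at 109 and 71.4 CPM, a log2 ratio of -0.62 (-0.95 to -0.28), and did not pass 2-fold there. Sfrp4 was at 43.8 and 51.8 CPM, a log2 ratio of 0.24 that was 1.19 with means of single-cell CPM. Sfrp2 was at 54.5 and 3.79 CPM, but the 112 WT UMIs came from 20 cells, 10 of which held 86.6%, and the log2 ratio of -3.84 was -1.67 with means of single-cell CPM. Of the 6 antagonists at the minimum in this cluster, 3 were 2-fold lower, beside 5.34% of all genes. The other markers moved unevenly here: the 12 endothelial markers summed to 4084 CPM in WT and 4370 CPM in EC-iCD45KO, the 7 arterial markers to 1766 and 2095 CPM, the macrophage list to 3208 and 6652 CPM, the B-cell list to 831 and 68.3 CPM and the T/NK list to 309 and 87.2 CPM. Their part in the ratios was not tested.

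Sfrp1 and Frzb met in the same cells of the Tmem158 and Gkn3 cluster. Among thinned WT cells, Frzb was found in 36 of 220 cells with Sfrp1 (16.4%, 11.7 to 21.9) and in 10 of 456 without (2.19%, 1.06 to 4.00). In EC-iCD45KO it was found in 13 of 83 with Sfrp1 (15.7%, 8.61 to 25.3) and in 10 of 370 without (2.70%, 1.30 to 4.91). Dkk2 showed no such overlap in WT: it was found in 14 of 220 cells with Sfrp1 (6.36%, 3.52 to 10.5) and in 35 of 456 without (7.68%, 5.40 to 10.5). WT cells with Dkk2 were thus spread over those with and without Sfrp1, and the overlap in EC-iCD45KO is not given here. The intervals treat cells as independent, which cells of 1 library are not.

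**Figure D3:**
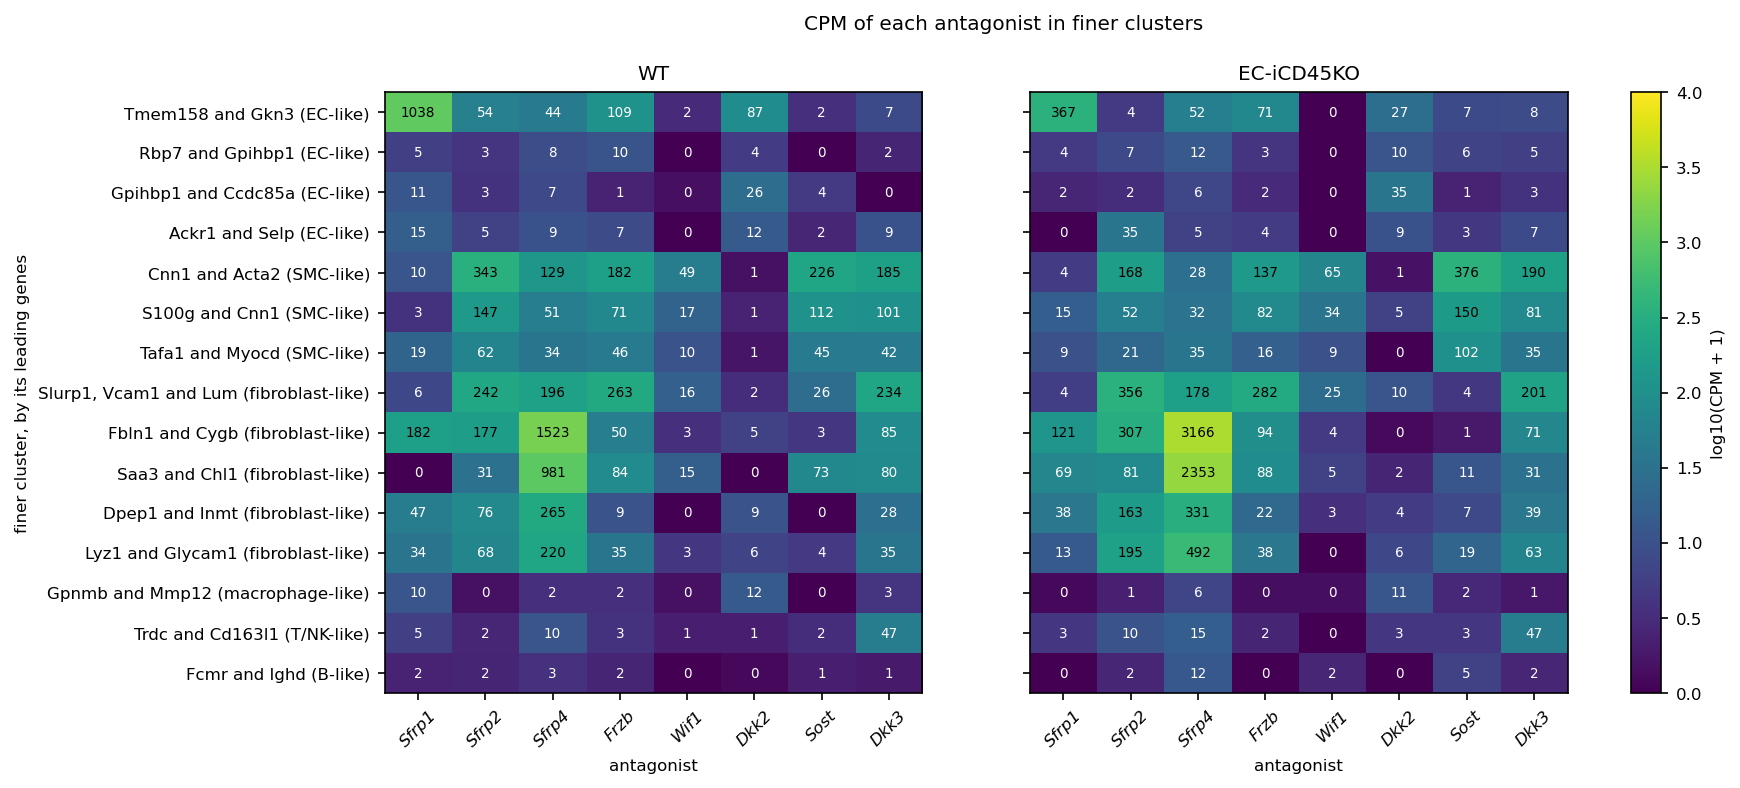
CPM of the 8 antagonists (columns) in 15 finer clusters (lines, named by their leading genes, with the class in brackets) of the WT (left) and EC-iCD45KO (right) libraries. Colour is log10(CPM + 1) and the printed value is the CPM. Sfrp1 is highest in the Tmem158 and Gkn3 cluster (1038 and 367 CPM), Sost in the Cnn1 and Acta2 cluster (226 and 376 CPM) and Sfrp4 in the Fbln1 and Cygb cluster (1523 and 3166 CPM).

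In SMC-like cells the Lrp-binding antagonist Sost stood out. It had 765 UMIs (82.6 CPM) in 2792 WT cells and 2646 UMIs (197 CPM) in 3536 EC-iCD45KO cells, 2.39-fold higher, a log2 ratio of 1.25 (1.14 to 1.37). After thinning, Sost was found in 6.37% (5.34 to 7.53) of WT cells and 12.9% (11.6 to 14.2) of EC-iCD45KO cells, against at most 0.40% in leukocyte classes. The Wnt-binding Wif1 was at 21.6 and 41.7 CPM, a log2 ratio of 0.95 (0.71 to 1.19). Among the frizzled-related proteins, Sfrp4 was lower, at 149 and 77.8 CPM with a log2 ratio of -0.94 (-1.06 to -0.82). That ratio was -0.04 with means of single-cell CPM and passed 2-fold without doublet removal (-1.07) and with classes named at the finer resolution (-1.44). Sfrp2 and Frzb lay closer, with log2 ratios of -0.32 (-0.41 to -0.23) and -0.22 (-0.31 to -0.12). The ratio of Sfrp2 was -1.08 with a looser cell filter, and that of Frzb was 0.18 with means of single-cell CPM. Dkk3 was at 171 and 151 CPM, a log2 ratio of -0.18 (-0.27 to -0.08), and Sfrp1 at 9.94 and 8.49 CPM. Of 7 antagonists at the minimum, 1 was 2-fold higher, beside 1.65% of all genes, and the median log2 ratio was -0.22, beside -0.06 over all genes. The ratio of Sost missed 2-fold with a looser cell filter (0.76), without doublet removal (0.94) and with classes named at the finer resolution (0.96). The class was again made of different clusters: 1175 WT and 487 EC-iCD45KO cells lay in one led by Tafa1 and Myocd, and 387 and 1734 in one led by S100g and Cnn1. Another 459 and 285 lay in one led by Slurp1, Vcam1 and Lum, whose Sost levels are given below. That whole cluster had a median of 7859 and 9521 UMIs per cell, against 1371 and 1349 in the S100g and Cnn1 cluster. It therefore weighed more in the summed CPM than its number of cells, and its part in the Sost ratio was not tested. The 10 smooth muscle markers summed to 15800 CPM in WT and 25867 CPM in EC-iCD45KO, the 10 fibroblast markers to 11449 and 9140 CPM and the macrophage list to 1876 and 3758 CPM. The B-cell list stood at 558 and 39.7 CPM. Their part in these ratios was not tested.

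In each of 3 finer smooth muscle clusters the log2 ratio of Sost was smaller than over the class, in 2 of them with intervals apart from that of the class. In a cluster led by the contractile genes Cnn1 and Acta2, with 225 WT and 463 EC-iCD45KO cells, Sost was at 226 CPM (440 UMIs in 88 cells) and 376 CPM (1999 UMIs in 283 cells), a log2 ratio of 0.73 (0.58 to 0.89). The thinned share there was 16.4% (11.9 to 22.0) and 26.4% (22.4 to 30.7). In the S100g and Cnn1 cluster it was at 112 and 150 CPM, a log2 ratio of 0.42 (0.07 to 0.78), and in the Tafa1 and Myocd cluster at 45.2 and 102 CPM, a log2 ratio of 1.18 (0.64 to 1.71). Sost was thus higher in EC-iCD45KO in each of the 3, and past 2-fold in 1, beside 1.45%, 7.16% and 7.51% of all genes that were 2-fold higher in the Cnn1 and Acta2, S100g and Cnn1, and Tafa1 and Myocd clusters. Sfrp2 was 2-fold lower in the other two: at 147 and 51.8 CPM in the S100g and Cnn1 cluster, where 10 cells held 67.3% of the 101 WT UMIs, and at 61.7 and 21.2 CPM in the Tafa1 and Myocd cluster, on 90 and 12 UMIs. In these clusters 7.82% and 10.9% of all genes were 2-fold lower. The smooth muscle markers of the Cnn1 and Acta2 cluster summed to 40877 and 45049 CPM.

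In the Cnn1 and Acta2 cluster 3 of the 4 frizzled-related proteins were 2-fold lower in EC-iCD45KO. Sfrp4 was at 129 and 28.4 CPM, 4.54-fold lower, a log2 ratio of -2.18 (-2.48 to -1.89). Sfrp2 was at 343 and 168 CPM, a log2 ratio of -1.03 (-1.17 to -0.88), but 10 cells held 65.2% of its WT and 63.3% of its EC-iCD45KO UMIs, and it missed 2-fold with TMM factors (-0.94). Sfrp1 was at 10.3 and 3.95 CPM, on 20 and 21 UMIs. Frzb stood closer, at 182 and 137 CPM, Wif1 at 49.3 and 64.5 CPM, and Dkk3 at 185 and 190 CPM. Of 7 at the minimum 3 were 2-fold lower, beside 3.60% of all genes, and none was 2-fold higher. The fibroblast markers in this cluster, some of which smooth muscle cells also express, summed to 6479 CPM in WT and 3836 CPM in EC-iCD45KO, and their part in the lower Sfrp4 and Sfrp2 was not tested.

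A cluster led by Slurp1, Vcam1 and Lum, with 463 WT and 285 EC-iCD45KO cells, was counted as SMC-like at the coarser resolution and as fibroblast-like at the finer one. Its smooth muscle markers summed to 4386 and 4210 CPM and its fibroblast markers to 18953 and 25433 CPM. Frzb was at 263 and 282 CPM, Sfrp2 at 242 and 356 CPM, and Sfrp4 at 196 and 178 CPM. Dkk3 was at 234 and 201 CPM, Wif1 at 15.9 and 25.3 CPM and Sfrp1 at 6.41 and 4.49 CPM. These 6 differed by less than 2-fold. Of all 8 antagonists, each at the minimum here, 2 differed by 2-fold, beside 4.75% of all genes in either direction. Sost was at 25.9 and 3.53 CPM, but 10 cells held 96.3% of the 109 WT UMIs. Dkk2 was at 2.38 and 10.3 CPM on 10 and 32 UMIs, of which 1 EC-iCD45KO cell held 18.

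In fibroblast-like cells Sfrp4 differed most among the 7 antagonists with a mean of at least 5 CPM. It had 4840 UMIs (622 CPM, 604 to 640) in 4860 WT cells and 16588 UMIs (2042 CPM, 2011 to 2073) in 3659 EC-iCD45KO cells, 3.28-fold higher, a log2 ratio of 1.72 (1.67 to 1.76). The thinned share of cells with Sfrp4 was 19.1% (17.7 to 20.5) and 41.2% (39.2 to 43.2), against at most 1.94% in macrophage-like, T/NK-like and B-like cells. Other cells of EC-iCD45KO held more Sfrp4: an erythroid-like cluster led by Hbb-bs and Hba-a1 stood at 1041 CPM. An unnamed cluster led by Ighg3 and Igha, of 57 EC-iCD45KO cells, stood at 778 CPM. Sfrp2, with a log2 ratio of 0.70 (0.59 to 0.82), and Frzb, with one of 0.66 (0.49 to 0.84), were also higher in EC-iCD45KO, at 126 and 206 CPM and at 53.7 and 85.1 CPM. Sfrp1 was at 80.5 and 73.4 CPM, a log2 ratio of -0.13 (-0.30 to 0.03), and Dkk3 at 66.2 and 58.7 CPM, one of -0.17 (-0.35 to 0.01). Both intervals include 0, but with an equal weight per cluster the ratio of Sfrp1 was -1.07. Wif1 was at 4.50 and 5.66 CPM and Sost at 8.86 and 9.60 CPM. The log2 ratio of Sost, 0.12, fell as low as -1.69 and kept its sign in 7 of 12 alternatives. Of 7 at the minimum 1 was 2-fold higher, beside 1.92% of all genes, and the median log2 ratio was 0.33, beside -0.04 over all genes. With an equal weight per cluster the ratio of Sfrp4 was 0.68 and missed 2-fold, and it was 1.11 without clusters that drew over 80% of their cells from 1 library.

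The fibroblast-like class, too, was not the same mixture in both libraries. A cluster led by Lyz1 and Glycam1 gave 2702 WT and 216 EC-iCD45KO cells, and one led by Saa3 and Chl1 gave 87 and 978. The fibroblast markers summed to 13762 CPM in WT and 20865 CPM in EC-iCD45KO, the macrophage list to 4716 and 6861 CPM and the B-cell list to 1169 and 70.9 CPM. In the cluster led by Fbln1 and Cygb, with 782 WT and 676 EC-iCD45KO cells, the fibroblast markers summed to 27956 and 31855 CPM and the macrophage list to 1796 and 1937 CPM. Single markers moved both ways in this cluster. Dcn was at 15801 and 12571 CPM, C7 at 774 and 397 CPM and the B-cell marker Cd79a at 259 and 24.2 CPM. Col1a1 was at 1218 and 2530 CPM and Saa3 at 937 and 3186 CPM, and the part of these markers was not tested. There Sfrp4 was at 1523 and 3166 CPM, 2.08-fold higher, a log2 ratio of 1.06, beside 1.67% of all genes that were 2-fold higher. With means of single-cell CPM, in which each cell weighs the same, the ratio was 0.66. The cells with a Sfrp4 UMI were 404 and 394, with a median of 3 and 5 UMIs in such a cell. The thinned share was 39.4% (35.7 to 43.2) and 45.9% (41.8 to 50.1). The interval of the ratio of summed levels did not reach 0. No interval was computed for the difference in share, so the overlap of the share intervals cannot be set against it.

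In the Fbln1 and Cygb cluster Sfrp2 was at 177 and 307 CPM, a log2 ratio of 0.80 (0.63 to 0.96), although 10 cells held 54.9% of its EC-iCD45KO UMIs. Frzb was at 50.3 and 94.1 CPM, one of 0.90 (0.60 to 1.22). Sfrp1 was at 182 and 121 CPM, one of -0.59 (-0.79 to -0.40), and so also lower in EC-iCD45KO. Dkk3 was at 84.7 and 71.0 CPM. In the Saa3 and Chl1 cluster, of 89 WT and 980 EC-iCD45KO cells, Sfrp4 was at 981 and 2353 CPM, a log2 ratio of 1.26 (1.08 to 1.45), in a cluster where 23.0% of all genes differed by 2-fold, and 0.53 with means of single-cell CPM. Others were 2-fold lower in this cluster: Sost at 72.5 and 10.9 CPM, Dkk3 at 80.1 and 31.1 CPM and Wif1 at 15.3 and 4.90 CPM, the last on 4 and 9 UMIs. The smooth muscle markers there summed to 2793 CPM in WT and 1769 CPM in EC-iCD45KO. Every endothelial marker was higher in EC-iCD45KO there, for example Pecam1 at 95.4 and 159 CPM and Emcn, on 1 WT UMI, at 3.82 and 50.7 CPM. The part of both marker lists was not tested. Sfrp2 was at 30.5 and 81.2 CPM on 8 and 149 UMIs, a log2 ratio of 1.41 that was -0.11 with means of single-cell CPM, and Sfrp1 had 0 UMIs in WT and 127 in EC-iCD45KO. In the cluster led by Dpep1 and Inmt, Sfrp4 was at 265 and 331 CPM, a log2 ratio of 0.32 (-0.24 to 0.94) whose interval includes 0. In the Lyz1 and Glycam1 cluster, of 2782 WT and 218 EC-iCD45KO cells, Sfrp4 was at 220 and 492 CPM, a log2 ratio of 1.16 on 675 and 78 UMIs whose interval did not reach 0, and 10.7% of all genes there were 2-fold higher. Sfrp4 therefore differed past 2-fold in the Fbln1, Saa3 and Lyz1 clusters and not in the Dpep1 cluster, and the difference between clusters was not tested.

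**Figure D4:**
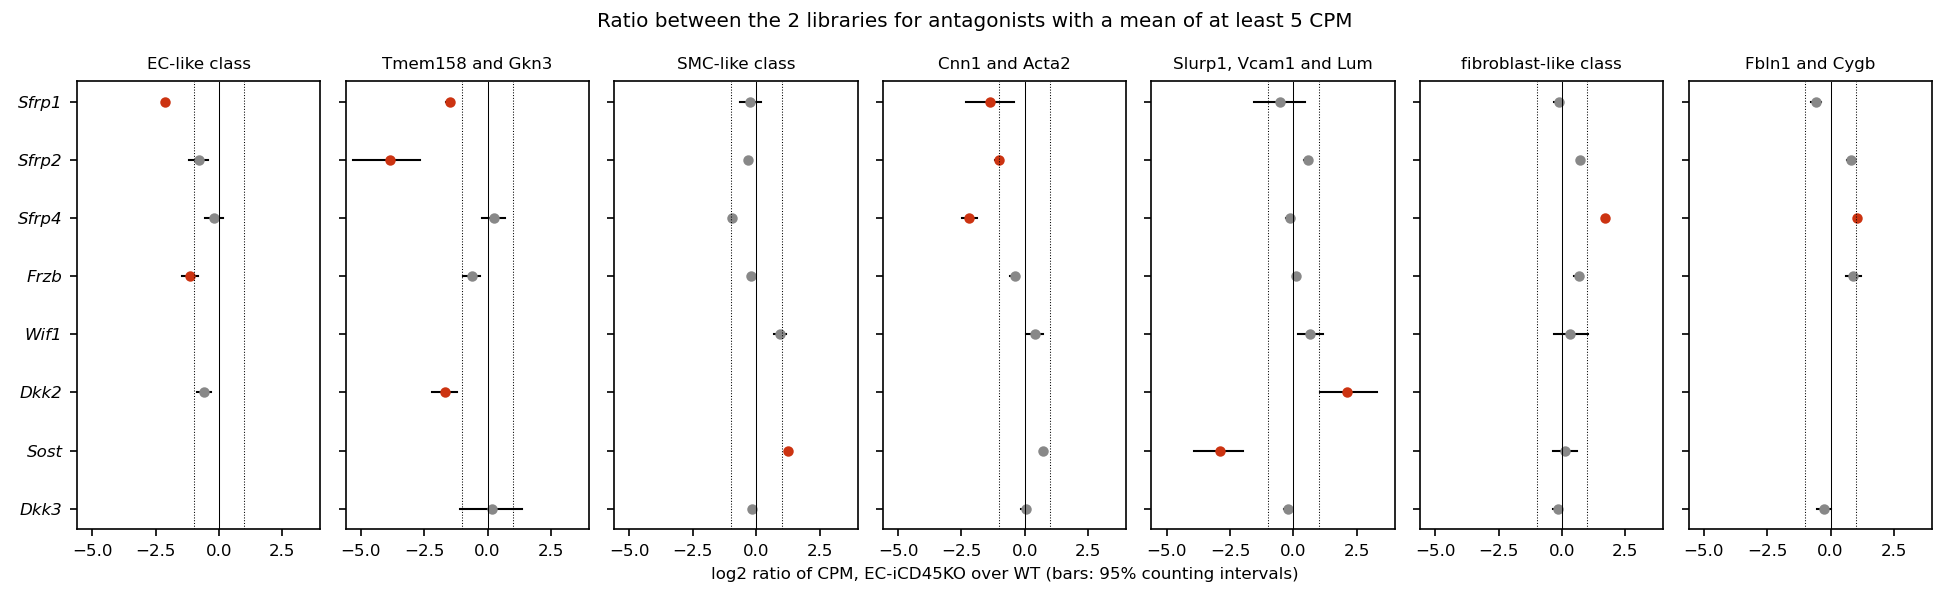
Log2 ratio of CPM, EC-iCD45KO over WT, for each antagonist with a mean of at least 5 CPM, in 3 classes and 4 finer clusters. Points are the ratio (red where at least 2-fold, grey otherwise), lines are 95% counting intervals, and dotted lines mark 2-fold. Sfrp1 lies at -2.11 in EC-like cells and -1.50 in the Tmem158 and Gkn3 cluster, Sost at 1.25 in SMC-like cells and 0.73 in the Cnn1 and Acta2 cluster, and Sfrp4 at 1.72 in fibroblast-like cells and 1.06 in the Fbln1 and Cygb cluster.

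Chondrocyte-like cells, the leading class of Frzb and Wif1 in WT, were 756 in WT and 43 in EC-iCD45KO. Frzb was at 385 and 350 CPM, a log2 ratio of -0.14 (-0.40 to 0.12), and Wif1 at 200 and 221 CPM, one of 0.14 (-0.20 to 0.47). Sfrp4 was at 245 and 65.4 CPM, on 689 and 26 UMIs. The other values rest on single cells: all 94 Sfrp1 UMIs of EC-iCD45KO came from 1 cell, and 93 of its 96 Sfrp2 UMIs also from 1. Sost had 46 UMIs in WT and 0 in EC-iCD45KO. The 9 chondrocyte markers summed to 13298 CPM in WT and 6875 CPM in EC-iCD45KO and the fibroblast list to 23564 and 30129 CPM, with a median of 1649 and 7485 UMIs per cell, and their part in these ratios was not tested. In this class 18.9% of all genes differed by 2-fold and the EC-iCD45KO values rest on few cells throughout.

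The rest of the Wnt pathway was counted on 80 genes in 7 lists: other secreted antagonists, ligands, ligand secretion, receptors, the R-spondin module, intracellular components and target genes. In EC-like cells 31 were at the minimum, 0 were 2-fold higher and 2 were 2-fold lower, beside 1.5% and 3.69% of all genes, with a median log2 ratio of 0.04, beside -0.00 over all genes. In SMC-like cells 41 were at the minimum, 1 was higher and 2 were lower, beside 1.65% and 3.35% of all genes, with a median of 0.02, beside -0.06. In fibroblast-like cells 44 were at the minimum, 3 were higher and 2 were lower, beside 1.92% and 4.93% of all genes, with a median of 0.18, beside -0.04. None of the receptors at the minimum (9 of 18 in EC-like, 13 in SMC-like and 12 in fibroblast-like cells) and none of the 14 intracellular components passed 2-fold in these classes.

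In EC-like cells the receptor Fzd4 was at 88.2 CPM in WT and 113 CPM in EC-iCD45KO, the co-receptor Lrp6, to which Dkk2 binds, at 49.5 and 51.0 CPM, and the Wnt receptor Ryk at 42.8 and 51.2 CPM. Wls, which carries Wnts to the cell surface, was at 110 and 58.1 CPM, a log2 ratio of -0.92 (-1.08 to -0.77). Igfbp4, a further secreted antagonist, was at 298 and 279 CPM, and Znrf3, a ligase that removes Frizzled receptors, at 30.7 and 22.2 CPM. The R-spondin receptor Lgr4 was at 5.79 and 4.42 CPM, and no Wnt ligand was at the minimum in EC-like cells. In SMC-like cells the ligand Wnt16 was at 127 and 147 CPM, the receptor Ror1 at 280 and 316 CPM and Lrp6 at 47.4 and 49.0 CPM. Ryk was at 78.2 and 80.3 CPM, Igfbp4 at 222 and 204 CPM, Wnt5b at 6.37 and 4.10 CPM and Znrf3 at 30.2 and 19.7 CPM, none past 2-fold. Lgr6, an R-spondin receptor, was at 20.95 and 53.4 CPM, a log2 ratio of 1.35 (1.12 to 1.59), and the R-spondin Rspo3 at 51.9 and 26.8 CPM, one of -0.95 (-1.15 to -0.75). In fibroblast-like cells Igfbp4 was at 784 and 1854 CPM, a log2 ratio of 1.24 (1.20 to 1.28), Ror1 at 163 and 295 CPM, and the ligand Wnt5a at 14.0 and 14.7 CPM. Lrp6 was at 84.1 and 99.3 CPM, Ryk at 57.2 and 77.3 CPM, Wnt16 at 14.1 and 11.3 CPM and Wnt5b at 8.22 and 5.54 CPM. Znrf3 was at 33.4 and 19.0 CPM, Rspo3 at 20.4 and 14.5 CPM and Rspo1 at 8.86 and 12.2 CPM. The ligands Wnt2, at 1.67 and 8.37 CPM, and Wnt9a, at 3.47 and 7.76 CPM, were the other genes 2-fold higher there.

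The 2 genes that were 2-fold lower in each of the 3 classes were Lef1 and Tcf7, transcription factors of the pathway that T cells also express strongly. Lef1 was at 43.9 and 5.65 CPM in EC-like, 34.6 and 0.968 CPM in SMC-like and 62.9 and 5.91 CPM in fibroblast-like cells. Tcf7 was at 28.5 and 4.52, 19.7 and 3.80, and 32.8 and 4.31 CPM. The T/NK markers were lower in the same classes, at 333 and 50.8, 255 and 36.7, and 501 and 74.4 CPM, and their part in Lef1 and Tcf7 was not tested.

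The genes whose levels ran most like each antagonist were found for 7 of the 8 over 48 points, 24 clusters of the coarser resolution in each of the 2 libraries, by Pearson's r of log2(CPM + 1). Clusters with under 50 cells in either library were left out, the chondrocyte-like class among them. Without it Wif1 did not reach 50 CPM in any point, so no nearest genes were sought for it. Between the antagonists themselves no such minimum was applied, and r with Wif1 rests on low levels. This is a description: the points share libraries, and clusters of 1 class resemble each other. Sfrp1 was nearest to Afap1l2 (r = 0.82), Nfasc (0.82) and Cytl1 (0.82), the last a gene also on the chondrocyte list, at 2062 and 2260 CPM in the Tmem158 and Gkn3 cluster. Sfrp2 was nearest to Itgbl1 (0.91), Nalcn (0.90) and Lum (0.90), and Sfrp4 to Mmp3 (0.94), Prr16 (0.92) and Pdgfra (0.91). Frzb was nearest to Smoc1 (0.95), Mgp (0.95) and Bgn (0.95), and Dkk3 to Aff2 (0.94), Abi3bp (0.91) and Tmeff2 (0.90). Sost was nearest to Optc (0.89) and the contractile genes Acta2 (0.88) and Tagln (0.88). Dkk2 was nearest to Tal1, Vamp3 and Apbb2 (each 0.79). Among the antagonists themselves, Sfrp2 and Frzb (0.82), Sfrp2 and Sfrp4 (0.81) and Frzb and Dkk3 (0.80) were most alike. For Dkk2, r ran from -0.17 with Wif1 to 0.59 with Sfrp1.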

How the data were processed

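Aortic cells of 2 mouse libraries were analysed, 1 per group. The authors deposited raw UMI counts for each gene and barcode, made with Cell Ranger 7.1.0 on mm10, per the submitters' processing notes. Whether intronic reads were counted, how cells were called and whether animals were pooled is not given in the sources used here. Of 32285 gene identifiers, 32158 matched GENCODE M21.

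A cell was kept with 300 or more genes and no more than 10% of its UMIs from mitochondrial genes. Scrublet's own threshold marked 8 WT (0.0201%) and 0 EC-iCD45KO cells as doublets and had not worked, so the top-scoring 10% of each library was removed. Both libraries were clustered together without batch correction (scanpy 1.11.5, 2000 variable genes, 30 principal components, 20 neighbours, leidenalg 0.10.2), at resolution 1 for classes and 2 for finer clusters, leaving out the antagonists and the genes of the Wnt lists. Classes were named from marker lists with a mean log2 excess of at least 1, 0.75 more than for any other class, and at least 3 detected markers and 50 cells. These limits were chosen with the data in view, and the names were rebuilt here and may differ from the study's. Unnamed cells were 6364 in WT and 1111 in EC-iCD45KO.

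CPM are the UMIs of a gene per 1000000 UMIs, both summed within a class and library. Intervals are exact at 95%: Poisson for CPM, Clopper-Pearson for shares and conditional binomial for ratios. A gene counted as different at 2-fold with a mean of at least 5 CPM. For shares, cells were thinned to 1000 UMIs each. With 1 library per group no test was possible. The rule for named genes took the 8 antagonists, Wnt-list genes past 2-fold, in each class the 3 genes with the highest mean CPM of the other antagonists, ligands, receptors and R-spondin module (printed at a mean of at least 5 CPM), and the 3 genes most like each antagonist that reached 50 CPM. Wls, Gja5, Gja4 and Bmx fall outside that rule and were named after their values were seen. The antagonists and lists were chosen with earlier results of these data known. Upstream sequences came from RefSeq. The tools were scipy 1.17.1, pandas 2.3.3, matplotlib 3.10.9 and numpy 2.4.6 in Python 3.11.15, and edgeR 4.0.16 in R 4.3.3 for TMM factors only. The statistics were tested on simulated counts drawn independently for each gene. Those counts leave out the bunching of UMIs in few cells seen here, so they do not show that the intervals hold for these data. The alternatives were stricter and looser cell filters, no doublet removal, centring each library, resolution 2, TMM, CPM without mitochondrial, ribosomal, haemoglobin and immunoglobulin genes, means of single-cell CPM, equal weight per cluster, no minimum, and other thinning. Chosen after seeing the data were 3 more: leaving out shared barcodes, leaving out clusters with over 80% of cells from 1 library, and keeping only EC-like cells of the Tmem158 and Gkn3 cluster.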

Additional observations from a re-analysis of the deposited data

Results flagged for a closer look

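A signal appeared in cells that enter no comparison between classes, although some of them lie in finer clusters whose values are given, 368 WT and 77 EC-iCD45KO cells in the Trdc and Cd163l1 cluster among them. Of the cells that the naming rule left unnamed, 6364 in WT and 1111 in EC-iCD45KO, the EC-iCD45KO cells held 167 Sost UMIs, or 47.0 CPM (40.1 to 54.7), above the 7.01 CPM (5.65 to 8.60) of the WT cells. The unnamed cells were not the same mixture in both libraries. In WT 2402 lay in a cluster led by Slc9a9 and Dcstamp and 1918 in one led by Glycam1 and Umod, which held 148 and 0 of the unnamed EC-iCD45KO cells. At the coarser resolution 480 of the unnamed EC-iCD45KO cells and 320 of WT lay in a cluster led by Notch3 and Higd1b. All 10 smooth muscle markers were detected in it, and it stayed unnamed because its excess for smooth muscle led that for pericytes by 0.22, under the 0.75 required. At the finer resolution 324 unnamed EC-iCD45KO cells lay in a cluster led by S100g and Igfbp3, against 195 in WT, and Sost over that whole cluster was at 55.2 CPM in WT and 104 CPM in EC-iCD45KO. The part of this mixture in the Sost levels was not tested.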

How the results depend on the processing

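No paired analysis was possible because a group is a single library. Over 12 alternatives the log2 ratio of Sfrp1 in EC-like cells lay between -2.38 and -1.73 and passed 2-fold in all 12, Frzb there between -1.33 and -0.79 (10 of 12), Sost in SMC-like cells between 0.76 and 1.43 (9 of 12) and Sfrp4 in fibroblast-like cells between 0.68 and 1.81 (11 of 12). Counts of antagonists past 2-fold moved by over 1.5 times, in EC-like cells from 2 to 1 (means of single-cell CPM), in SMC-like cells from 1 to 2 (TMM, equal weight per cluster, no minimum) and in fibroblast-like cells from 1 to 2 (stricter filter, resolution 2, no minimum). With a looser filter, without doublet removal and at resolution 2 the count in SMC-like cells was 1 as well, but lower in place of higher. Counts of Wnt-list genes moved in EC-like cells from 2 to 4 (means of single-cell CPM) and 7 (no minimum), in SMC-like cells from 3 to 5 (resolution 2) and 8 (no minimum), and in fibroblast-like cells from 5 to 2 (equal weight), 12 (no minimum) and 3 (without clusters over 80% from 1 library, added after the data were seen). The cause was not tested. Of 18 ratios past 2-fold one changed sign, Sfrp2 in the Saa3 and Chl1 cluster, from 1.41 to -0.11 with means of single-cell CPM. Of 33 ratios under 2-fold, 12 changed sign in at least 1 alternative (22 of 255 values), among them Sfrp2 and Sfrp4 in EC-like cells (up to 0.37 and 0.57) and Sost in fibroblast-like cells (from 0.12 down to -1.69, in 5 of 12). Of single log2 ratios, 287 stayed within their counting interval and 74 left it, and of shares of cells 23 and 73 did so. Other thinning keeps other UMIs and other cells, and their parts were not separated. Genes under about 5 CPM had too few UMIs for a ratio.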

Other observations

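Some antagonists were also found outside the clusters described in the report. Dkk3 was at 46.8 CPM in both libraries in a T/NK-like cluster led by Trdc, a constant region of the γδ T-cell receptor, and Cd163l1, with a UMI in 72 of 893 WT and 27 of 242 EC-iCD45KO cells and never more than 3 in a cell. In the cluster led by Ackr1 and Selp, genes of venous endothelium, Sfrp2 was at 5.00 CPM in WT and 35.4 CPM in EC-iCD45KO, where 62 UMIs came from 32 of 413 cells. Dkk2 was at 12.4 and 10.95 CPM in a macrophage-like cluster led by Gpnmb and Mmp12. Sfrp4 was at 936 CPM (832 to 1048) in 178 erythroid-like cells of EC-iCD45KO and at 30.3 CPM (16.1 to 51.8) in 331 of WT. Of the Ackr1 and Selp cells, 316 in WT and 409 in EC-iCD45KO belong to the EC-like class, over which Sfrp2 had a log2 ratio of -0.80. What Sfrp4 in erythroid-like cells comes from was not tested.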
